A study of Mus musculus with 30 samples.

Results

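The abundant heterogeneous nuclear ribonucleoproteins (hnRNPs) coat RNA as it is made and stay on it through splicing, export and decay. The genes described here are Hnrnpa1, Hnrnpa2b1, Hnrnpc, Hnrnpd, Hnrnpf, Hnrnph1, Hnrnpk, Hnrnpl, Hnrnpm and Hnrnpu. They were taken as the entries of the deposited count tables whose Ensembl gene identifiers map to these symbols, which gave 10 of 48709 genes, and all 10 are protein-coding. Their levels were measured by RNA sequencing in brain, kidney, liver, muscle (quadriceps femoris) and spleen of adult C57BL/6 mice. Each tissue had 3 wild-type (WT) libraries and 3 libraries from Ctcf haploinsufficient mice (Ctcf+/-, written Het below), 30 libraries in all. Per the series' design text the 5 tissues come from 3 WT and 3 Het mice, so libraries of different tissues share animals, but the labels do not say which. No other allele or agent is named for either genotype. The kind of Ctcf allele, the sex and the exact age of the mice are not given in the sources used here. Whole pieces of tissue were sequenced, so a lower value can stand for fewer cells of a type or for less RNA per cell, and these cannot be told apart.

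The libraries held between 49.8 M and 131.6 M counts. For each tissue, 5 of 5 of its marker genes were higher in every one of its 6 libraries than in any library of the other tissues. Ctcf, the gene of which the Het mice lack a functional copy, checks the genotype labels. In brain its level, in counts scaled to a library of 1 M (CPM) within the tissue, was 66.5 to 71.7 in WT and 40.9 to 44.4 in Het. The WT and Het ranges were 58.0 to 63.9 and 32.9 to 39.6 for kidney, 25.8 to 27.4 and 13.4 to 19.6 for liver, 29.3 to 34.3 and 19.3 to 23.5 for muscle, and 176 to 229 and 105 to 153 for spleen. The genotypes did not overlap in any of the 5 tissues. The log2 fold change of Ctcf was between -0.70 and -0.57.

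Most hnRNP proteins join RNA-binding domains to flexible, glycine-rich stretches, and several of them can occupy the same transcript at once. They are best known for helping to decide which exons are kept in a messenger RNA, often against the SR proteins, which favour exon inclusion. Because many hnRNPs bind short and common sequences, the balance between family members is thought to matter for splice site choice as much as the level of any single member. Hnrnpa1 and Hnrnpa2b1 are close relatives that bind UAG-like motifs, and Hnrnpa2b1 is also known for RNA transport. Hnrnpf and Hnrnph1 both bind runs of guanines, Hnrnpk binds stretches of cytosines through KH domains, Hnrnpl binds CA repeats and Hnrnpm binds GU-rich sequence. Hnrnpc binds runs of uridines and packages nascent transcripts, Hnrnpd (also called AUF1) binds AU-rich elements that mark messengers for decay, and Hnrnpu (also called SAF-A) binds both RNA and chromatin.

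The counting limits how firmly the level of some members can be read. The counting settings dropped any fragment with several alignments or in exons of more than 1 gene. Of the annotated exon bases of Hnrnpf, 26.5% also lie in exons of other genes (4933440N22Rik and Gm43863). The share was 24.9% for Hnrnpm (March2), 6.9% for Hnrnpu (Cox20), 5.2% for Hnrnpd (Gm17092), and 0.9% or less for the others. Words of sequence shared with other genes were also counted, whether in a copy elsewhere or in an overlapping neighbour. Of all 75-base words in the annotated transcripts, 55.95% of those of Hnrnpf, 27.04% of those of Hnrnpa1, 14.26% of those of Hnrnpk and 12.96% of those of Hnrnpm also occur in transcripts of another gene. All shared words of Hnrnpm lie in March2, so they repeat the overlap given above. Of the 1024 shared words of Hnrnpk, 183 lie in its overlapping neighbour Rmi1. For Hnrnpa2b1 the share was 0. The levels of Hnrnpf and Hnrnpa1 relative to other genes are therefore uncertain. The loss can also differ between tissues that use different transcripts of a gene, which was not tested.

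The sequences just upstream of 4 members are shown because these members form the 2 pairs of relatives whose balance differed most between tissues. They are the 120 bases before the outermost RefSeq transcript start (GRCm38.p6), 5′ to 3′ on the gene's strand, with CCAAT boxes in capitals (CCAAT, or ATTGG where the box lies on the opposite strand). The windows are chr15:103240277-103240396 (plus strand) for Hnrnpa1, chr6:51469895-51470014 (minus strand) for Hnrnpa2b1, chr11:50376870-50376989 (plus strand) for Hnrnph1 and chr6:117900220-117900339 (plus strand) for Hnrnpf.
Hnrnpa1: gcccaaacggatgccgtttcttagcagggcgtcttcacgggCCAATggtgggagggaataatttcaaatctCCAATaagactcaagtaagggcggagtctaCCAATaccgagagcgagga
Hnrnpa2b1: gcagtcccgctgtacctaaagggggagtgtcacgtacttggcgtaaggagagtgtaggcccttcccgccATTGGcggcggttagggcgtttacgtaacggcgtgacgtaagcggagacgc
Hnrnph1: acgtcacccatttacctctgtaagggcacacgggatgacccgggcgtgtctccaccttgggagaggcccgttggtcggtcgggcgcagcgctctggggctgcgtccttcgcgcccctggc
Hnrnpf: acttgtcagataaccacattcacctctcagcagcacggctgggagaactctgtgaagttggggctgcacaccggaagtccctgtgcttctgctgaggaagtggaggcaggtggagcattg
Hnrnpa1 has 3 CCAAT boxes in this stretch, beginning 79, 49 and 19 bases before the start, and Hnrnpa2b1 has 1, while these letters are not in the stretch of Hnrnph1 or Hnrnpf. Over the full 250 bases before the start, CCAAT on either strand occurs in 6 of the 10 members (Hnrnpa1, Hnrnpa2b1, Hnrnpc, Hnrnph1, Hnrnpk and Hnrnpl) and in 34.5% of 27025 RefSeq windows of that length. The GC box GGGCGG occurs in 5 members (Hnrnpa1, Hnrnpd, Hnrnph1, Hnrnpl and Hnrnpu) and in 33.0% of windows. TATAAA occurs in 1, Hnrnpm, and in 13.0% of windows. The consensus core of the CTCF binding motif, searched on both strands, is in none of the 10 windows and in 0.359% of all windows. These matches are descriptions of the letters and not of binding.

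The next comparison asks how the level of each member differs between tissues when Ctcf is intact. Spleen had the highest level of this family in CPM, which is relative to the other RNA of a library. In the 15 WT libraries, 9 of 10 members were highest in spleen, and the exception was Hnrnpa2b1, which was as high in muscle. These statements use the TMM scale defined below. The share of all genes that were highest in spleen is not given here, so the count does not set the members apart. Hnrnpf varied most under either scaling, with 14.5 times as much in spleen as in brain, and Hnrnpc and Hnrnpk varied least under either. All 10 members differed among the 5 tissues by edgeR's quasi-likelihood F-test, at an adjusted p of 0.000855 (Hnrnpc) or lower, but so did 98% of the 22933 genes tested, so the count says little about these genes. The log2 range over the 5 tissue means was 0.83 for Hnrnpc, 0.91 for Hnrnpk, 1.13 for Hnrnpl, 1.22 for Hnrnpu, 1.72 for Hnrnpd, 1.98 for Hnrnpa2b1, 2.32 for Hnrnpm, 2.47 for Hnrnph1, 2.62 for Hnrnpa1 and 3.86 for Hnrnpf. The median over all genes was 3.60, with quartiles at 2.13 and 6.12, so that 9 of 10 members lie below the median. By total counts the ranges were wider, at 2.09 for Hnrnpc, 2.25 for Hnrnpk, 2.29 for Hnrnpa2b1, 2.47 for Hnrnpl, 2.55 for Hnrnpu, 2.89 for Hnrnpd and Hnrnpm, 3.64 for Hnrnph1, 3.79 for Hnrnpa1 and 3.93 for Hnrnpf, against a median of 3.93 over all genes, and 9 of 10 members again lay below it.

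Levels across tissues are given as common-scale CPM, which are CPM after TMM scaling over the 15 WT libraries. TMM assumes that most genes do not differ between libraries. The mean factor of the 3 WT libraries, by which a library's size is multiplied, was 1.40 in brain, 1.30 in kidney, 1.47 in spleen, 0.653 in liver and 0.579 in muscle. Against scaling by total counts, TMM therefore shifts brain, kidney and spleen down relative to liver, by -1.10, -0.99 and -1.17 on the log2 scale, and muscle up by 0.17. Of the 100 pairings of a member with 2 tissues, 61 were called in the same direction under both scalings. A further 18 turned, 17 of them between brain, kidney or spleen and liver or muscle, and 9 of the 18 had been called on the common scale. Those between neighbouring tissues that were called under either scaling are named with each gene below. The others called on the common scale were Hnrnpa2b1 in muscle over kidney (1.05 on the common scale and -0.12 by total counts), Hnrnph1 in muscle over brain (0.85 and -0.42) and Hnrnpk in liver over kidney (0.38 and -0.61). By total counts, spleen was highest for 10 of 10 members.

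**Figure D1:**
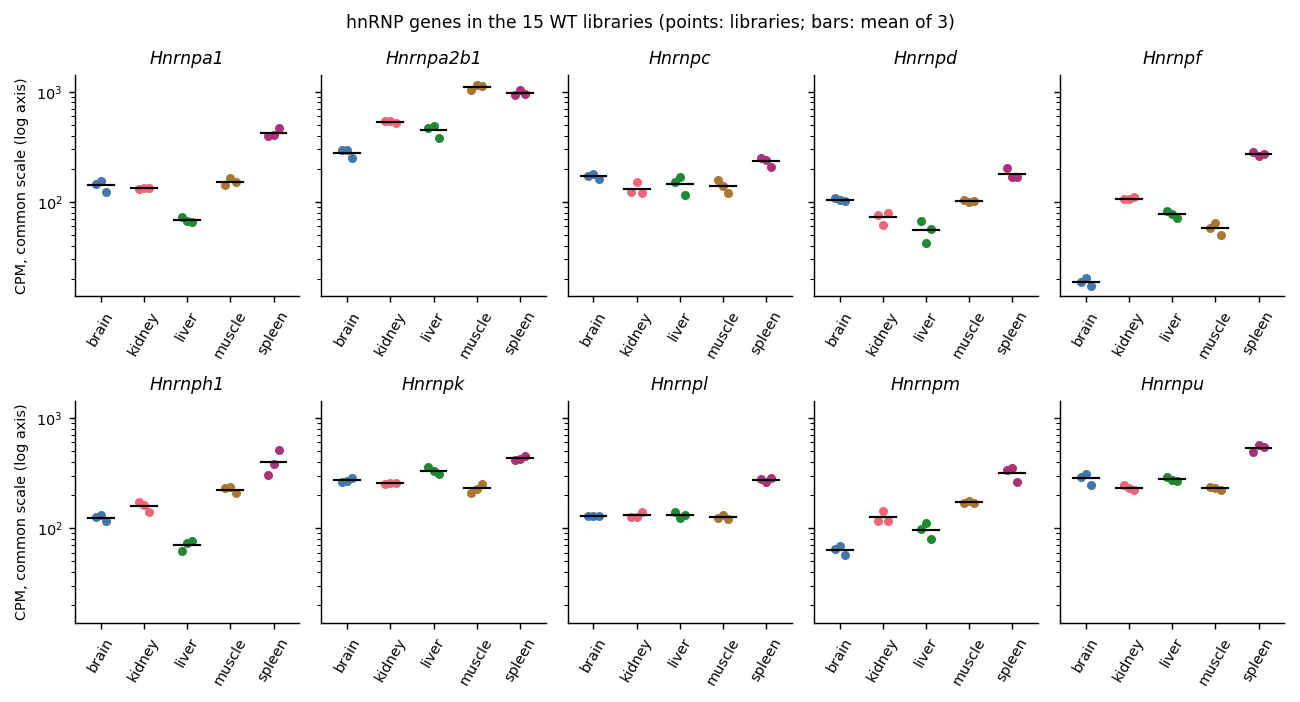
Level of each of the 10 hnRNP genes in the 15 WT libraries, as common-scale CPM on a log axis, with 1 point per library and a bar at the mean of 3. Spleen stands above the other tissues for every gene but Hnrnpa2b1, whose muscle libraries (1033 to 1162) are as high as those of spleen (933 to 1034), and Hnrnpf in brain (17.1 to 20.3) is the lowest point of all.

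The guanine-run binders came apart most clearly. Hnrnpf measured 282, 260.2 and 271 common-scale CPM in the 3 spleen libraries and 18.5, 20.3 and 17.1 in brain. Between them lay kidney at 106, 105 and 109.6, liver at 82.0, 77.4 and 71.4, and muscle at 58.2, 64.0 and 50.4. No tissue overlapped another, and 10 of its 10 tissue pairs were called. The steps downward were 1.34 on the log2 scale (SE 0.12) from spleen to kidney, 0.48 (SE 0.12) to liver, 0.42 (SE 0.12) to muscle and 1.63 (SE 0.12) to brain, with adjusted p of 9.55e-08, 0.00299, 0.0056 and 1.53e-08 by edgeR. This order is the same by total counts, where spleen stood 15.2 times above brain. Hnrnph1 followed another order. It measured 307, 385 and 512 in spleen, 231, 234 and 208 in muscle, 172, 161 and 141 in kidney, 126, 132 and 116 in brain, and 62.2, 73.8 and 76.9 in liver. Liver was lowest and spleen highest under either scaling. The steps on the common scale were 0.81 (SE 0.17, adjusted p 0.000585) from brain to liver and 0.84 (SE 0.17, adjusted p 0.000417) from spleen to muscle. The step from muscle to kidney, 0.50 (SE 0.17, adjusted p 0.0173), turned by total counts and was lost without any 1 of 3 libraries (WT kidney 2, WT kidney 3 or WT muscle 2, adjusted p 0.0514 to 0.144). Kidney and brain did not differ beyond their spread (0.34, SE 0.17, adjusted p 0.0827).

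Hnrnpa1 and Hnrnpa2b1, the pair of close relatives, also had different orders. Hnrnpa1 was 395, 401 and 473 common-scale CPM in spleen, 141, 165 and 151 in muscle, 146, 154 and 124 in brain, 130.2, 135 and 134 in kidney, and 72.4, 67.5 and 65.2 in liver. Spleen stood 1.47 (SE 0.13, adjusted p 6.78e-08) above muscle and kidney 0.96 (SE 0.13, adjusted p 1.4e-05) above liver on the log2 scale, while muscle, brain and kidney did not differ beyond their spread on this scale. By total counts brain stood above muscle by 1.16 (adjusted p 4.44e-06). Hnrnpa2b1 was 1033, 1162 and 1119 in muscle, 933, 1034 and 950.1 in spleen, 542, 539 and 517 in kidney, 473, 493 and 377 in liver, and 295, 297 and 249 in brain. Muscle and spleen overlapped and did not differ beyond their spread (0.18, SE 0.15, 95% interval -0.13 to 0.50, adjusted p 0.27). By total counts spleen stood above muscle by 1.16 (adjusted p 1.33e-06). Spleen was above kidney under either scaling, by 0.87 (SE 0.15, adjusted p 8.95e-05) on the common scale and by 1.04 (adjusted p 5.11e-06) by total counts. Liver was above brain by 0.68 (SE 0.15, adjusted p 0.000798) on the common scale and below it by total counts, by 0.44 (adjusted p 0.00713).

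Hnrnpl, Hnrnpu and Hnrnpc showed spleen above the other tissues, which lay close together on the common scale. Hnrnpl, the binder of CA repeats, was 279, 261 and 285 common-scale CPM in spleen, 139, 123 and 132 in liver, 126, 126 and 140.0 in kidney, 128, 128 and 128 in brain, and 123, 133 and 121 in muscle. Spleen stood 1.06 (SE 0.11, adjusted p 4.14e-07) above liver, and none of the 6 pairs among the other tissues was called. Hnrnpu had means of 536 ± 38.0 in spleen, 283 ± 30.5 in brain, 278 ± 13.6 in liver, 234 ± 13.3 in kidney and 231 ± 8.84 in muscle (SD, n = 3 each), with spleen 0.92 (SE 0.13, adjusted p 8.87e-06) above brain. Of its 6 pairs without spleen, brain over muscle was called (0.29, SE 0.13, adjusted p 0.0474). Hnrnpc was 253, 239.9 and 209 in spleen, 173, 178 and 160.2 in brain, 153, 169 and 115 in liver, 156, 139.6 and 120.2 in muscle, and 123, 152 and 120.1 in kidney. Spleen was above brain by 0.46 (SE 0.16, adjusted p 0.0184), a call that was lost without WT brain 3 (adjusted p 0.0736) or WT spleen 1 (adjusted p 0.0636). That closeness holds only on the common scale. By total counts kidney stood above liver by 0.98 for Hnrnpl and 0.75 for Hnrnpu, kidney above muscle by 1.09 for Hnrnpc, and all 3 genes were lowest in muscle.

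Hnrnpk, the KH-domain member, was 418, 429 and 449 common-scale CPM in spleen, 358, 328 and 313 in liver, 263, 270.3 and 288 in brain, 251, 257 and 257 in kidney, and 209, 229 and 251 in muscle. Spleen was above liver by 0.38 (SE 0.12, adjusted p 0.0105) and brain, kidney and muscle did not differ at their steps on the common scale. By total counts kidney stood above muscle by 1.32 (edgeR adjusted p 3.4e-07) and brain above muscle by 1.52 (edgeR adjusted p 6.51e-08). The step from liver to brain, 0.28 (SE 0.12, adjusted p 0.0446), was lost without any 1 of 9 of the 15 libraries (adjusted p 0.0524 to 0.165), among them every WT brain library, WT kidney 1 and 3, WT liver 1 and 2, WT muscle 2 and WT spleen 2, and it turned by total counts. Hnrnpd, the AU-rich element binder, had means of 179.6 ± 19.0 in spleen, 105 ± 3.82 in brain, 102 ± 1.5 in muscle, 72.4 ± 9.71 in kidney and 55.4 ± 12.5 in liver (SD, n = 3 each). Spleen was highest and liver lowest under either scaling, and spleen stood 0.78 (SE 0.16, adjusted p 0.000381) above brain. Its step from muscle to kidney, 0.50 (adjusted p 0.0124), was lost without WT kidney 2 (0.23, adjusted p 0.282) and turned by total counts. Hnrnpm, the GU binder, had means of 318 ± 48.2 in spleen, 172 ± 4.66 in muscle, 125 ± 15.6 in kidney, 96.8 ± 16.4 in liver and 63.4 ± 5.85 in brain. Spleen was 0.89 (SE 0.16, adjusted p 0.000124) above muscle. Muscle above kidney (0.46, adjusted p 0.0179) was lost without any 1 of 4 libraries (WT kidney 1, 2 or 3 or WT muscle 2, adjusted p 0.0536 to 0.077), and this step and that from liver to brain (0.61, adjusted p 0.00273) both turned by total counts.

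Of the 40 steps between neighbouring tissues in the 10 orders, 21 were called on the common scale. Counting all 10 pairs of tissues for each gene, 10 pairs were called for Hnrnpf, 9 for Hnrnph1 and Hnrnpm, 8 for Hnrnpa2b1 and Hnrnpd, 7 for Hnrnpa1 and Hnrnpk, 5 for Hnrnpu, and 4 for Hnrnpc and Hnrnpl. For a gene taken from the whole table, between 54.1% (kidney against liver) and 79.8% (brain against spleen) of genes were called per pair. In the pairs with spleen, the members called were 10 of 10 against brain, kidney and liver (79.8%, 75.5% and 72.9% of all genes) and 9 of 10 against muscle (75.2%). Each was higher in spleen, while the shares of all genes count calls in either direction. Without spleen the members called were fewer than the share of all genes in several pairs: 4 for brain against kidney (71.4%), 5 for brain against muscle (72.3%), 4 for kidney against liver (54.1%) and 5 for kidney against muscle (64.4%). They numbered 7 for brain against liver (73.2%) and for liver against muscle (64.2%).

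Genes can be compared with each other only per length, here as common-scale CPM per kb of exon that no other gene shares, scaled over all 30 libraries. On this measure Hnrnpa1 was the most abundant member in WT spleen, at 230.1 ± 22.0 CPM per kb, and in brain, at 72.6 ± 8.49. Hnrnpa2b1 led in muscle, at 156 ± 6.55, in kidney, at 82.7 ± 2.58, and in liver, at 70.7 ± 11.6 (SD, n = 3 each). Its lead over Hnrnpa1 in kidney is uncertain, given the sequence that Hnrnpa1 shares with other genes. The order of members within any tissue also rests on the length used. That length takes in the exons of all annotated transcripts and can exceed that of the transcripts in use, which was not measured. Hnrnpd was lowest in 4 tissues, from 8.22 ± 1.80 in liver to 26.9 ± 2.75 in spleen, and Hnrnpf was lowest in brain, at 8.20 ± 0.723. Among 21695 protein-coding genes ranked by CPM per kb of all annotated exon, the members in the top 10% numbered 10 in spleen, 9 in kidney, 7 in brain, 6 in muscle and 5 in liver. The highest rank was that of Hnrnpa1 in spleen, in the top 0.622%, and the lowest that of Hnrnpf in brain, in the top 25.7%.

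All 10 members together took 0.594% ± 0.070 of the counts in WT spleen, 0.244% ± 0.010 in kidney, 0.222% ± 0.012 in brain, 0.147% ± 0.004 in muscle and 0.111% ± 0.005 in liver (SD, n = 3 each). A share of all counts is itself a total-count scaling. On the common scale the summed level was again highest in spleen, at 4042 ± 122 CPM, but was 2538 ± 88.2 in muscle, 1879 ± 40.0 in kidney, 1704 ± 133 in liver and 1588 ± 88.1 in brain, so that only spleen kept its place. The share of each member within the family does not depend on how libraries are scaled. Of their summed counts per kb, Hnrnpa2b1 made up 33.1% ± 1.21 in muscle and 12.7% ± 0.525 in brain. Hnrnpa1 made up 23.7% ± 1.93 in spleen and 21.9% ± 1.14 in brain, against 10.4% ± 0.593 in liver. Hnrnpc was a larger share in brain, 17.7% ± 0.115, than in the other 4 tissues, where it ranged from 8.79% to 14.7%. Hnrnpk ranged from 8.13% in muscle to 17.4% in liver, and Hnrnpf from 2.48% in brain to 13.0% in spleen. These shares were not tested one by one, and the paralog ratios below carry the tests.

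**Figure D2:**
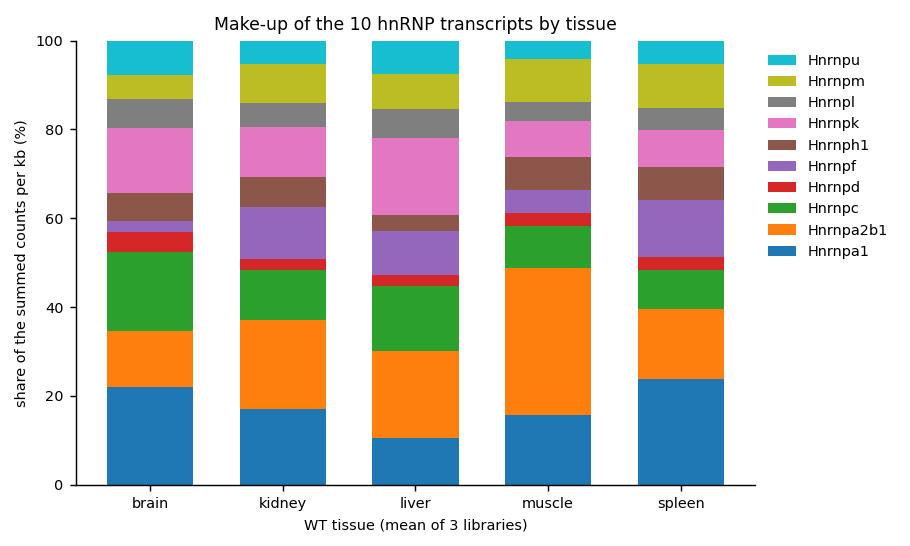
Share of each member in the summed counts per kb of the 10 hnRNP genes, in percent, as the mean of 3 WT libraries per tissue. The band of Hnrnpa2b1 is widest in muscle (33.1%) and that of Hnrnpf is thin in brain (2.48%).

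Because paralogs are thought to compete for or share targets, 6 pairs were compared as the log2 ratio of counts per kb within each library, over all 6 libraries of a tissue, with 2-sided exact permutation tests for the 60 pairings of ratio and tissue pair and Benjamini-Hochberg adjustment over all 60. The smallest p that 6 against 6 libraries can give is 0.00216, or 0.00406 after adjustment. The share of tissue pairs called for ratios of other genes is not given here. The counts of called pairs therefore do not set these ratios apart. For Hnrnpa1 over Hnrnpa2b1, 10 of 10 tissue pairs differed. The WT log2 ratios were 0.77, 0.83 and 0.77 in brain and 0.54, 0.41 and 0.77 in spleen, where Hnrnpa1 was in excess. They were -0.28, -0.22 and -0.17 in kidney, -0.93, -1.09 and -0.75 in liver, and -1.09, -1.04 and -1.11 in muscle, where Hnrnpa2b1 was in excess. The value of this ratio, and its sign in any tissue, are uncertain. The length used takes in the exons of all annotated transcripts, 1918 bases for Hnrnpa1 and 6584 for Hnrnpa2b1. Of the 75-base words of Hnrnpa1, 27.04% occur in other genes, against 0 for Hnrnpa2b1. Whether that loss is equal in all tissues was not tested. Brain was above muscle by 1.94 on the log2 scale over all 6 libraries each, without overlap (adjusted p 0.00406). Brain against spleen was a smaller difference of 0.21 with overlapping ranges (adjusted p 0.0111). The call for liver against muscle, 0.23 (adjusted p 0.0302), was lost without any 1 of 6 libraries (WT liver 1 or 3, Het liver 2 or 3, Het muscle 1 or 3, adjusted p 0.0577 to 0.0604).

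For Hnrnph1 over Hnrnpf, 9 of 10 tissue pairs differed. In WT brain the log2 ratios were 1.38, 1.33 and 1.37 and in muscle 0.61, 0.49 and 0.66, with Hnrnph1 in excess. They were -0.68, -0.77 and -1.02 in kidney, -1.26, -0.82 and -0.47 in spleen, and -1.78, -1.45 and -1.28 in liver, with Hnrnpf in excess. The difference from brain to liver was 2.75 over all 6 libraries each, without overlap (adjusted p 0.00406). Kidney and spleen could not be told apart (0.00, adjusted p 0.991), and liver against spleen (-0.60, adjusted p 0.0278) was lost without any 1 of 7 libraries (adjusted p 0.0531 to 0.0544). The value of this ratio, and its sign in any tissue, are uncertain, given the share of Hnrnpf sequence held by other genes and the lengths used. Whether that loss is equal in all tissues was not tested.

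**Figure D3:**
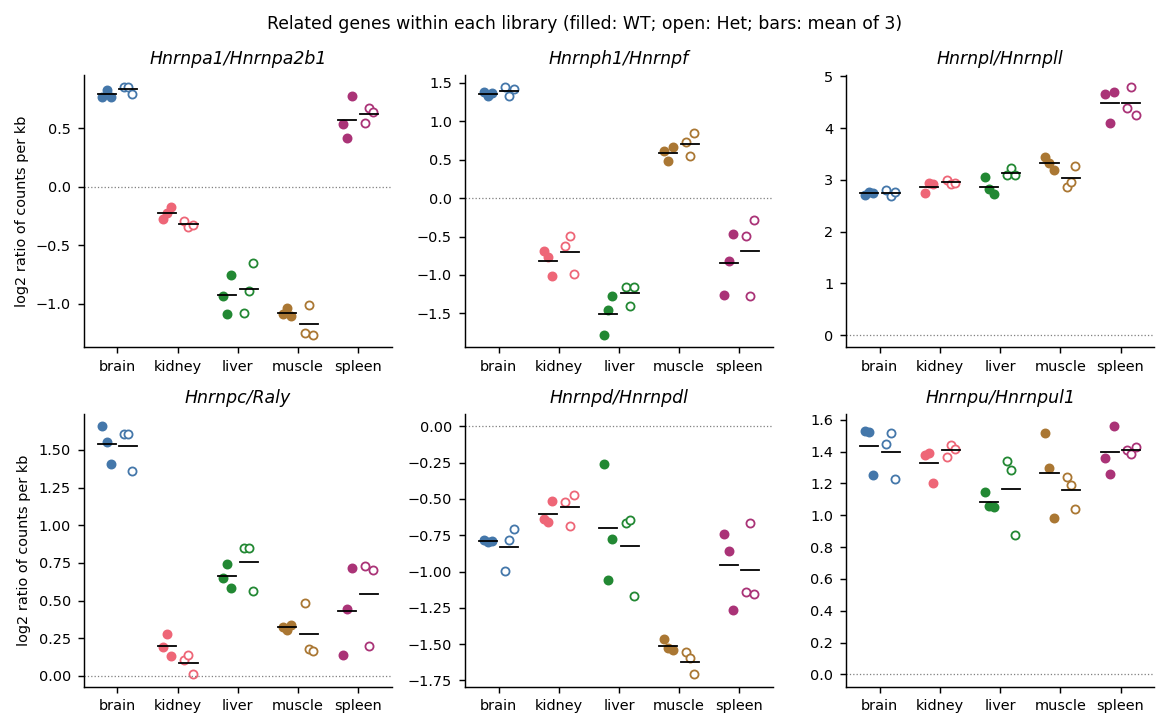
Log2 ratio of counts per kb of each member to a related gene, in all 30 libraries (filled points WT, open points Het, bars the mean of 3). Brain and spleen lie above 0 and kidney, liver and muscle below 0 for Hnrnpa1 over Hnrnpa2b1, spleen stands apart for Hnrnpl over Hnrnpll, and brain stands apart for Hnrnpc over Raly. No ratio was called different between filled and open points.

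Members were also set against relatives outside the 10. These relatives were counted per kb of all annotated exon, and the members per kb of exon that no other gene shares. The size of each such ratio is therefore uncertain, while its differences between tissues do not depend on the length used. Overlap of these relatives with other genes is not given here. Hnrnpll, a relative of Hnrnpl known for regulating the splicing of the CD45 gene in lymphocytes, was the scarcer of the pair in all 30 libraries. The WT log2 ratio of Hnrnpl to Hnrnpll was 4.65, 4.09 and 4.69 in spleen, a mean of 22.3-fold, and means elsewhere were 2.74 in brain, 2.86 in kidney, 2.87 in liver and 3.32 in muscle. Spleen differed from each of the other tissues without overlap (adjusted p 0.00406 each), and 7 of 10 pairs were called. Raly is a relative of Hnrnpc. The log2 ratio of Hnrnpc to Raly was 1.66, 1.55 and 1.40 in WT brain, against means of 0.66 in liver, 0.43 in spleen, 0.32 in muscle and 0.20 in kidney. Brain differed from each other tissue without overlap (adjusted p 0.00406 each), and 8 of 10 pairs were called. Of these, kidney against muscle and kidney against spleen (both adjusted p 0.0278) were each lost without any 1 of 5 libraries (adjusted p 0.0508 to 0.0544). Hnrnpd was scarcer than its relative Hnrnpdl throughout, most so in muscle, where the WT log2 ratios were -1.46, -1.52 and -1.54. Means elsewhere were -0.60 in kidney, -0.70 in liver, -0.79 in brain and -0.95 in spleen, and muscle differed from each of the other tissues (adjusted p 0.00406 each). Hnrnpu over Hnrnpul1 was the most even ratio. Its WT means ran from 1.09 in liver to 1.43 in brain, and 3 of 10 pairs were called, each with liver lower than another tissue (brain 0.29, kidney 0.24, spleen 0.28; adjusted p 0.0231, 0.0231 and 0.0111).

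The genotype comparison asks whether loss of a Ctcf copy moved any member in any tissue. No change of any of the 10 genes was detected in any of the 5 tissues. In 50 tests, 0 were called by edgeR's quasi-likelihood test at an adjusted p under 0.05, 0 had an unadjusted p under 0.05, and DESeq2 also called 0. Few genes of any kind were called, at 0.242% of genes in spleen, 0.0249% in muscle, 0.0211% in kidney, 0.0193% in liver and 0.0157% in brain. At an unadjusted p under 0.05 stood 3.52%, 6.45%, 6.44%, 4.56% and 2.96% of genes in the same order. With the replicate number as a block, the genes called numbered 22 in place of 3 in brain and 21 in place of 4 in kidney. They numbered 7 in place of 3 in liver, 118 in place of 4 in muscle and 0 in place of 45 in spleen. The members called stayed at 0. In the fits without that block, the log2 fold changes of the members, Het over WT, ranged from -0.12 to 0.22 with SE of 0.06 to 0.27. All 50 of the 95% intervals lay within 1 on the log2 scale of no change and 44 lay within 0.5. The interval for Hnrnph1 in spleen was the widest, from -0.58 to 0.69. The lowest unadjusted p was 0.158, for Hnrnph1 in liver, and the lowest adjusted p was 0.933.

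**Figure D4:**
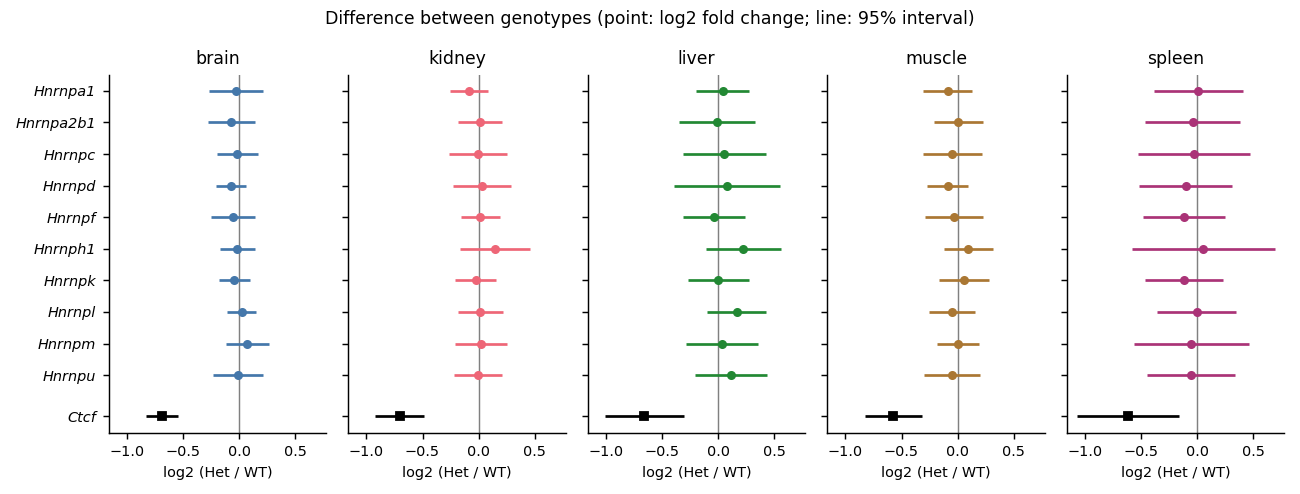
Log2 fold change of each member, Het over WT, in each tissue, with its 95% interval, and Ctcf in black below. The 50 member intervals all include 0, the widest are in spleen, and the 5 Ctcf points lie at -0.57 or lower.

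The values by library show how small the differences were. Genotype levels are tissue-scale CPM, scaled within the 6 libraries of a tissue. Hnrnph1 in liver was 40.5, 48.7 and 53.1 in WT and 63.1, 51.7 and 51.4 in Het, which overlap (log2 fold change 0.22, SE 0.14, adjusted p 1). In kidney Hnrnph1 was 226, 209 and 183 in WT and 231, 264 and 189 in Het (0.14, SE 0.14). Hnrnpa2b1 in muscle, where it leads the family, was 606, 669.8 and 654 in WT and 665, 618 and 654 in Het, with a log2 fold change of 0.01 and a 95% interval from -0.21 to 0.23. For Hnrnpa1 in spleen the values were 596, 609 and 675 in WT and 555, 657 and 680.3 in Het, with a fold change of 0.01 and an interval from -0.39 to 0.40.

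WT and Het libraries did not overlap in 5 of the 50 tests, which is 10%, 1 in each tissue. The share among all genes was 12.2% in muscle, 11.4% in kidney, 8.99% in liver, 7.83% in brain and 6.64% in spleen, so the members' share is near that of any gene. Hnrnpd in brain was 153, 143 and 143 in WT and 139.9, 143 and 135 in Het (log2 fold change -0.07, SE 0.06). Its gap was slight, as the lowest WT library stood at 142.85 and the highest Het library at 142.83. Hnrnpa1 in kidney was 171, 175 and 173 in WT and 163, 163 and 163 in Het (-0.09, SE 0.07). Both gaps were also present by total counts. The other 3 were not: Hnrnpl in liver was 90.6, 81.6 and 90.8 in WT and 98.7, 93.8 and 102 in Het (0.16, SE 0.11). Hnrnpd in muscle was 60.7, 58.0 and 59.9 in WT and 54.0, 57.7 and 56.0 in Het (-0.09, SE 0.08). Hnrnpk in spleen was 632, 652 and 640.3 in WT and 578, 598 and 594 in Het (-0.12, SE 0.15).

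No difference of the genotype effect between tissues was detected for the members, and no effect shared by the tissues. In the fit of all 30 libraries, 0 of 10 members were called for the interaction of genotype and tissue (0.758% of 24262 genes, edgeR adjusted p 1 for each member, lowest unadjusted p 0.516 for Hnrnpl). For an effect shared by the 5 tissues, 0 of 10 were called (0.194% of genes) and 0 had an unadjusted p under 0.05 (5.91% of genes). The largest shared log2 fold change was that of Hnrnph1, 0.12 (SE 0.07, 95% interval -0.04 to 0.27, unadjusted p 0.129, edgeR adjusted p 1). The other 9 lay between -0.03 and 0.05. For the paralog ratios, 0 of 30 tests of genotype were called. With 3 against 3 libraries the exact permutation test cannot give a p below 0.1, which 3 of 30 reached, and the smallest adjusted p was 0.75.

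Spread between replicates was uneven, and it was largest for Hnrnph1 in spleen. There its tissue-scale CPM was 464, 584 and 731 in WT and 637, 446 and 762 in Het, a coefficient of variation of 22.6% and 25.8%. Hnrnpc ran the other way, at 382, 364 and 298 in WT and 298, 428 and 298 in Het, and Hnrnpm likewise, at 515, 533 and 375 in WT and 394, 547 and 431 in Het. Over the 6 spleen libraries Pearson's r was -0.908 between Hnrnph1 and Hnrnpc, -0.817 between Hnrnph1 and Hnrnpm, and 0.913 between Hnrnpc and Hnrnpm, as a description over libraries that share a tissue. Hnrnpk was even, with a coefficient of variation of 1.53% in WT and 1.84% in Het.

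Markers of other cells moved with these spleen values. Marker levels are CPM by the total counts of each library, unlike the tissue-scale CPM of the members. The summed level of 5 of 5 erythroid markers was 71793, 51592 and 14654 in WT and 20439, 62008 and 34177 in Het. The libraries with the most Hnrnph1 (WT 3, Het 1 and Het 3) have the lowest erythroid sums and, on the tissue scale, the lowest Hnrnpc. The summed level of 5 of 5 pancreas markers was 197, 128 and 23.7 in WT and 30.5, 1534 and 26.9 in Het, so that Het 2 stood apart. Liver markers summed to 30.9 to 35.7 in WT and 0.0766 to 0.282 in Het spleen (Ahsg at 0 in the 3 Het libraries), and kidney markers to 0.128 to 0.334 in WT (Umod, Kap and Aqp2 at 0) and 10.8 to 21.5 in Het. Without Het 2, 0 of 10 members were called in spleen, and the log2 fold changes ran from -0.23 (Hnrnpc) to 0.23 (Hnrnph1). The part of these markers in the member values was not tested.

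**Figure D5:**
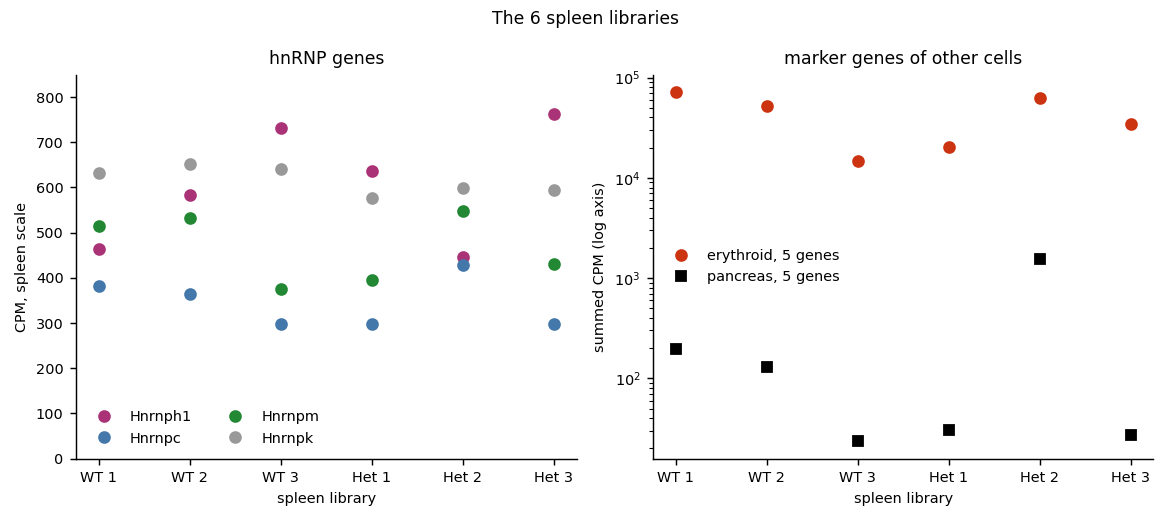
The 6 spleen libraries. On the left, tissue-scale CPM of 4 hnRNP genes on an axis from 0, where Hnrnph1 is high in the libraries in which Hnrnpc and Hnrnpm are low, and on the right, on a log axis, the summed CPM of 5 erythroid and of 5 pancreas marker genes, with Het 2 at 1534 for pancreas.

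In brain a single replicate number stood out instead. Hnrnpu was 408, 426 and 349 in WT and 404, 422 and 348 in Het, and Hnrnpa2b1 was 414, 410.4 and 349 in WT and 391, 393 and 335 in Het. Replicate 3 was the lowest library of both genotypes for 8 of the 10 members, all but Hnrnpk and Hnrnpl. In liver Hnrnpd varied most, at 43.6, 27.8 and 39.4 in WT and 45.3, 41.7 and 30.1 in Het, a coefficient of variation of 22.2% and 20.3%. The steadiest values were those of Hnrnpa1 in Het kidney (0.227%), Hnrnpk in WT kidney (0.691%) and Hnrnpl in WT brain (0.802%).

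Across all 30 libraries the levels of the members varied in the same sense. Pearson's r of log2 levels was above 0 for 45 of 45 pairs of members, with a median of 0.684, and highest for Hnrnpl with Hnrnpu and for Hnrnpa1 with Hnrnpd (0.929 each). The weakest were Hnrnpa2b1 with Hnrnpk (0.115) and with Hnrnpc (0.125). By total counts 45 of 45 were also above 0, with a median of 0.840. After removing the mean of each tissue and genotype, 36 of 45 were above 0, with a median of 0.212, from -0.398 for Hnrnph1 with Hnrnpl to 0.871 for Hnrnpc with Hnrnpm. Within the 6 spleen libraries 32 of 45 were above 0, with a median of 0.214. The share of pairs above 0 among other genes is not given here, and most members were highest in spleen. These are descriptions over libraries that share tissue and scaling, with no test.

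By the rule for likeness, the 10 genes outside the family whose log2 level over the 30 libraries correlated best with the mean z-score of the members were Map4k1 (r 0.988), Snx5, Pold1, Sipa1, Riok1, Traf3ip3, Lyl1, Bora, Iglc4 and Stk17b (r 0.982), out of 17683 genes searched, and each was highest in spleen. For single members the most alike gene was Taf1c for Hnrnpa1 (r 0.982), G3bp1 for Hnrnpa2b1 (0.984), Ncbp1 for Hnrnpc (0.950), Rbmx2 for Hnrnpd (0.986), H2-Ab1 for Hnrnpf (0.994), Jak2 for Hnrnph1 (0.967), Naip5 for Hnrnpk (0.969), Phf1 for Hnrnpl (0.984), Rps23 for Hnrnpm (0.979) and Kmt2b for Hnrnpu (0.977). H2-Ab1 encodes an MHC class II chain of antigen-presenting cells, and like Hnrnpf it was ordered spleen, kidney, liver, muscle, brain. With 5 tissues, such correlations rest on the tissue order.

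Other hnRNPs and related RNA-binding genes numbered 38. None of the 36 to 38 tested per tissue was called in Het against WT, and none for the interaction or the shared effect. At an unadjusted p under 0.05 stood Cirbp in brain (log2 fold change -0.26, SE 0.08, edgeR adjusted p 1), Pcbp4 in muscle (-0.36, SE 0.13, adjusted p 0.654) and Khdrbs3 in spleen (-1.22, SE 0.37, adjusted p 0.867), where its level was under 1 CPM in all 6 libraries. For the shared effect, Cirbp (-0.21, SE 0.09, unadjusted p 0.0217, edgeR adjusted p 0.656) and Khdrbs3 (-0.35, SE 0.14, unadjusted p 0.0185, adjusted p 0.625) were under 0.05 unadjusted. The list's median log2 fold change was between -0.06 and 0.02 in the 5 tissues. Among WT tissues 38 of 38 differed (98% of all genes), and 25 were highest in spleen on the common scale, against 27 by total counts. The share of all genes highest in spleen is not given here. The median log2 range was 1.72, and 2.81 by total counts. The smallest ranges on the common scale were those of Hnrnpll (0.64), Elavl1, which stabilises AU-rich messengers (0.77), and Pcbp2, a binder of cytosine-rich RNA (0.79). By total counts Hnrnpll had a range of 1.88, Elavl1 of 1.55 and Pcbp2 of 0.94. The largest under either scaling were those of Ralyl, Khdrbs2 and Khdrbs3, all highest in brain, with means of 55.8 ± 1.86, 6.07 ± 1.03 and 103 ± 5.22 common-scale CPM (SD, n = 3).

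Genes that act on hnRNP proteins were also measured. Tnpo1 and Tnpo2 encode transportins that carry hnRNPs such as Hnrnpa1 into the nucleus, Tnpo3 imports SR proteins, and Prmt1, Prmt5 and Carm1 encode arginine methyltransferases. None of these 6 was called in any genotype comparison, and 0 had an unadjusted p under 0.05 in any tissue. Among WT tissues 5 of 6 differed on the common scale, beside 98% of all genes, and 6 of 6 by total counts, beside 99.1%. The gene not called on the common scale was Tnpo3 (edgeR adjusted p 0.0502), with means between 48.6 and 64.3 common-scale CPM. Tnpo1 was highest in spleen under either scaling, at 102 ± 31.1 common-scale CPM. It was lowest in brain on that scale, at 38.8 ± 5.34, with kidney at 86.6 ± 6.66, liver at 73.5 ± 10.4 and muscle at 44.9 ± 6.79, and lowest in muscle by total counts (26.0 against 54.3 in brain). Tnpo2 was highest in brain under either scaling, at 111 ± 4.31, and lowest in kidney on the common scale, at 35.2 ± 0.589, but in liver by total counts (28.7 against 45.8 in kidney). Prmt1 was lowest in liver under either scaling, at 23.6 ± 3.33 common-scale CPM, and highest in muscle on the common scale, at 167 ± 21.0, but in spleen by total counts (SD, n = 3 each).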

How the data were processed

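Each tissue has a deposited table of raw counts of fragments in exons. Per the file headers, the authors counted read pairs without strand, with featureCounts 1.5.0-p3 and Ensembl release 86 (GRCm38). The submitters' processing notes also list FastQC, STAR and DESeq2, with versions not given in the sources used here. Libraries were grouped by title. Counts were tested with edgeR 4.0.16 in R 4.3.3 (filterByExpr, TMM, quasi-likelihood F-test, Benjamini-Hochberg over all genes, called at an adjusted p under 0.05), checked on simulated data. Het was compared with WT within each tissue, the interaction and the shared effect in all 30 libraries, and tissues in the 15 WT libraries. Ratios used scipy 1.17.1. SE and 95% intervals come from the F statistic. p-values measure the spread between libraries, and tissues share mice. The fragments carry no molecular identifiers, so depth sets counting error only.

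All 10 members are named, of the lists any gene called, the 6 ratio partners and the 3 smallest and 3 largest tissue ranges, and the genes most alike. Members and lists were chosen with earlier results of these data known. Replicate numbers come from the titles. WT and Het libraries of the same number correlated in their deviations from group means at 0.207, 0.383 and 0.537 in brain and 0.209, 0.190 and 0.212 in kidney. Of unlike number, WT 2 with Het 1 was the highest in both, at 0.216 in brain and -0.039 in kidney. The numbers were taken to pair libraries in these tissues, less firmly in brain, though the labels do not say so. Alternatives were DESeq2 1.42.0, its size factors, total counts, no filter, 1 fit of all libraries, the replicate block, the mouse as a random effect (limma 3.58.1) and leaving out each library. Intron retention was not analysed here.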

Additional observations from a re-analysis of the deposited data

How the results depend on the processing

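The member counts kept their side of the threshold under every alternative run: 0 of 10 were called for genotype in each tissue, for the interaction and for the shared effect, and 10 of 10 differed among WT tissues. Of 600 alternative member fold changes within tissues, 94 changed sign, all uncalled, between -0.23 and 0.31. The genes called overall depended more on the tool. They numbered 3, 4, 3, 4 and 45 in brain, kidney, liver, muscle and spleen, 28, 159, 69, 182 and 192 with DESeq2, 1, 13, 37, 229 and 250 with 1 fit of all 30 libraries, and 6, 45, 16, 66 and 74 without a filter. Without 1 library they ranged over 0 to 1, 3 to 56, 1 to 17, 1 to 2 and 0 to 29, highest without Het kidney 3, Het liver 3 and Het spleen 2 in those 3 tissues. For the interaction there were 184 (108 to 223 without 1 library) and for the shared effect 47 (28 to 55).

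In the replicate block, genes called numbered 22 for brain, 21 for kidney, 7 for liver, 118 for muscle and 0 for spleen. Whether the numbers pair libraries in liver, muscle and spleen cannot be told. Same-numbered libraries correlated at 0.05, 0.12 and 0.28 in liver and at 0.08, 0.18 and 0.27 in muscle. In spleen they correlated at -0.47, -0.23 and 0.47. WT 1 with Het 2, of unlike number, reached 0.27 in liver, 0.12 in muscle and 0.76 in spleen. With the mouse as a random effect, 279 genes were called for the interaction and 67 for the shared effect. That fit took libraries of equal number and genotype to be of 1 mouse, which the labels do not say. The consensus correlation of such libraries was low, at 0.0195 in the interaction fit and 0.0238 in the shared fit. The block changed no member's genotype call. Between tissues it gained the Hnrnpd and Hnrnpm steps from kidney to liver and lost that of Hnrnpk from liver to brain (adjusted p 0.0256, 0.0199 and 0.0545).

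Scaling by total counts gave 11 of the 40 steps between neighbouring tissues a call in the other direction, called 9 more and left 20 on their side of the threshold. Calls lost and gained numbered 4 and 3 without a filter, 3 and 2 in the 15 Het libraries, 2 and 1 with DESeq2 size factors, and 0 and 6 with all 30 libraries. Brain over muscle became 1.16 for Hnrnpa1. Brain over liver became 0.44 for Hnrnpa2b1, 0.82 for Hnrnpk and 0.50 for Hnrnpm. Muscle over spleen became -1.16 for Hnrnpa2b1. Kidney over muscle became 1.09 for Hnrnpc, 0.67 for Hnrnpd, 0.66 for Hnrnph1 and 0.70 for Hnrnpm, and kidney over liver 0.98 for Hnrnpl and 0.75 for Hnrnpu. Paralog ratios are free of this choice. Of 60 tissue comparisons of ratios 43 were called, and 41 to 45 without 1 library. The 3 WT libraries alone gave the same sign in 60 of 60, with a smallest possible p of 0.1. With 3 libraries a group, changes within the intervals given were not detectable.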
